A study of Rattus norvegicus with 24 samples.

Results

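The genes described here are a feedback set of the ERK pathway, made up of dual-specificity phosphatases (Dusp), Sprouty proteins (Spry) and Spred proteins. The set was named as 9 genes, Dusp1, Dusp4, Dusp5, Dusp6, Spry1, Spry2, Spry4, Spred1 and Spred2, and 7 of them had a row among the 21425 gene rows of the expression table. Dusp1 and Spred1 were not analysed here. The rule for membership uses gene names and no measured value, but the set was proposed with earlier results of these data known. All 7 passed the filter on low values in both experiments.

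ERK is the last kinase of a relay in which growth factor receptors activate Ras, Raf and MEK in turn. Active ERK raises transcription of its own inhibitors. Dusp proteins remove the activating phosphates from ERK and related kinases, while Spry and Spred proteins act further up, between the receptor and Raf. For this reason their messenger RNAs are widely used as a readout of ERK signalling. In the testis the pathway serves growth factor signals such as FGF, GDNF and KIT ligand, and it can also be engaged by gonadotropins.

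Poly(A) RNA was sequenced from a model of the neonatal testis that was seeded with the complete cell mixture of testes from wild-type Sprague Dawley rats at postnatal day 5 and kept in Matrigel in serum-free medium, of which part was renewed daily. The baseline experiment held the primary isolate (labelled tissue) and cultures of days 3, 5 and 7, in 3 technical replicates each, all from 1 litter and without added hormone. In the induction experiment, cultures of day 10 were sampled at 0 h, before hormone, and at 2, 12 and 48 h after addition of FSH (20 mIU/mL) and LH (50 mIU/mL). There were 3 litters, with 1 library per litter and time, and each library pooled 3 cultures. The 24 libraries therefore formed 8 groups of 3. The baseline p-values measure technical spread within 1 litter. Since libraries of unstimulated cultures at 2, 12 and 48 h were not analysed here, the effects of the gonadotropins, of new medium and of elapsed time cannot be told apart. The 6 h time was not analysed here. In such bulk samples, fewer cells of a type and less RNA per cell cannot be told apart either.

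Levels are deposited CPM, in which the read count of each gene is scaled so that libraries of unequal depth can be compared. Library totals were 17.3 to 30.4 M reads in the baseline and 15.8 to 28.3 M reads in the induction experiment, so that 1 read was worth 0.0329 to 0.0579 CPM and 0.0353 to 0.0633 CPM. Every member had at least 3.65 CPM in every library, well above these steps. Levels are not compared between genes, since CPM is not scaled to gene length, or between the experiments. The mixture was checked against cell type markers. Sertoli cell markers summed to 2580 to 2656 CPM at day 3, against 1580 to 1649 CPM in tissue; of these 6 genes, 4 were called higher and 1, Dmrt1, lower (-1.09 ± 0.19), with Gata4 the largest part of the sum. Peritubular myoid markers summed to 2758 to 3268 CPM at day 3, against 1288 to 1447 CPM in tissue. All 6 germ cell markers fell by day 3, to a sum of 9.47 to 26.3 CPM, against 218.2 to 240.8 CPM in tissue. Of 3 mesothelial markers 1 passed the filter, Lrrn4, with 115.1 ± 9.70 CPM at day 3, against 0.448 ± 0.174 CPM in tissue; Msln and Upk3b stayed near 0. Of 6 Leydig cell markers, 2 were called higher and 3 lower at each of days 3, 5 and 7. They summed to 60.2 to 79.8 CPM at day 3, against 86.4 to 90.7 CPM in tissue. Cyp17a1 (-3.20 ± 0.24) and Hsd17b3 (-1.52 ± 0.15) were among those lower at day 3. Insl3, a Leydig cell hormone, was among those higher, with a mean of 5.04 CPM in tissue and of 30.9, 36.3 and 45.6 CPM at days 3, 5 and 7. It was listed at 0 in all 12 induction libraries, although the Leydig cell markers together summed to 59.0 to 95.3 CPM at 0 h. The reason for the 0 values was not tested.

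Promoters are shown for the 3 members that changed most in culture. They differ in matches to the motifs described below, and the part of these motifs in the changes was not tested. The sequences are the 250 bases before the annotated start, from RefSeq (rat build GRCr8), read 5′ to 3′ on the gene's strand. Dusp5 lies at chr1:262543524-262543773 on the plus strand, Spry2 (the first of its pair of annotated starts) at chr15:89111927-89112176 on the minus strand and Spry4 at chr18:30702547-30702796 on the minus strand. Capitals mark matches to the motifs searched.
Dusp5: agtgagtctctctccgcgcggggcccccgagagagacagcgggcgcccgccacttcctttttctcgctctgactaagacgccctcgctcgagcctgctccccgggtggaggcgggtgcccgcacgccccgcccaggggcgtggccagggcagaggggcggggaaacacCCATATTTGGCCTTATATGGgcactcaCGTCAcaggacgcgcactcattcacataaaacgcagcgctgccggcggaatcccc
Spry2: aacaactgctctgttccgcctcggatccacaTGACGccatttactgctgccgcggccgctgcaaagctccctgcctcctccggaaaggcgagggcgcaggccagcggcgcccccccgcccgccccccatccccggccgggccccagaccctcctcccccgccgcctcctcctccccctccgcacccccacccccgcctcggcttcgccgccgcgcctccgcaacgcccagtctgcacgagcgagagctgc
Spry4: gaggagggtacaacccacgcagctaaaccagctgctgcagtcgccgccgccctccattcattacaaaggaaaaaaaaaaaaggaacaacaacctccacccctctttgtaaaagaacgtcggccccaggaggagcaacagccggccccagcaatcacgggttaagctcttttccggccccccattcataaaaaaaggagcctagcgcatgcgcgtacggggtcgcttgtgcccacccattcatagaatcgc

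The motifs, searched on both strands, were the full cAMP response element TGACGTCA, its core TGACG (which lies within the full element), the AP-1 site TGANTCA, the ETS site CCGGAAGT and the CArG box, the site of serum response factor. Dusp5 held 2 adjoining CArG boxes, with first bases at positions -82 and -72 counted from the start, and the core TGACG on the opposite strand at -55. A CArG box occurred in 1.50% of the 33469 RefSeq promoters of the same length, the core TGACG in 18.2%, AP-1 in 6.34%, ETS in 3.10% and the full cAMP element in 1.59%. Of 10 ERK target genes with a promoter entry, 4 held a CArG box, namely Egr1, Egr2, Etv1 and Srf, and 5 held the core TGACG (Egr1, Egr2, Fosl1, Maff and Srf). The full cAMP element (Maff) and AP-1 (Plaur) were each in 1 of the 10 and ETS in 0. Here a gene counted if any of its annotated starts held the motif, whereas the shares above are of single promoters. Spry2 held the core TGACG at -219 from its first start, and Spred2 held it at -51. Dusp6, Spry1, Spry4 and the second Spry2 start matched none of these letters within the window. Of the 7 members, 6 matched a promoter entry; Dusp4 had none.

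In culture the members split. Dusp5 and Spry2 fell against tissue at days 3, 5 and 7, Spry4 rose at all 3 days, Dusp6 rose at day 3 and Dusp4 rose at days 5 and 7. Spry1 and Spred2 were not called at any day. Thus 2 of 7 members rose and 2 fell at each day. Among all 13055 genes tested with limma at an adjusted p under 0.05, 29.1% were higher and 26.8% lower at day 3, 29.6% and 30.3% at day 5, and 28.5% and 31.4% at day 7. The share of members called was thus close to that of all genes. The same number of members, 4 of 7, was called at each day with edgeR and with DESeq2 on the recovered reads. Of all 13055 genes, edgeR called 3731 higher and 3556 lower at day 3, 3973 and 3751 at day 5, and 3970 and 3790 at day 7. Of 13046 genes, DESeq2 called 3786 and 3804 at day 3, 4006 and 3989 at day 5, and 4031 and 3952 at day 7. Fold changes are on the log2(CPM + 1) scale, with SE, and levels are means ± SD with n = 3. Where groups of baseline libraries are said not to overlap, the share of all genes that do so was not counted. Such statements describe the values and are not read as a result about the members.

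Dusp5, a nuclear phosphatase that acts on ERK and is itself an ERK-induced gene, had the largest change of the members. It had 55.1, 53.9 and 56.5 CPM in the tissue libraries, 9.32, 6.49 and 7.08 CPM at day 3, 8.57, 9.04 and 3.65 CPM at day 5, and 7.57, 8.41 and 7.15 CPM at day 7. Every culture library lay below every tissue library, and the culture days overlapped each other. The mean was 7.63 ± 1.49 CPM at day 3, against 55.1 ± 1.30 CPM in tissue, a ratio of 0.138. The log2 fold change was -2.71 ± 0.24 at day 3 (limma adjusted p = 7.91e-07), -2.88 ± 0.24 at day 5 (4.36e-07) and -2.69 ± 0.24 at day 7 (6.90e-07). RefSeq annotates a long non-coding RNA, LOC134485251, that overlaps Dusp5, and the libraries were not strand-specific, so reads of the pair cannot be told apart if they lie in the overlap. All 4 markers of dissociation stress (Fos, Nr4a1, Hspa1b and Hsph1) moved with it, summing to 101.4 to 117.6 CPM at day 3, against 4271 to 4313 CPM in tissue, with none listed at 0 in any library. The part of dissociation stress and of the germ cell loss in the Dusp5 change was not tested.

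Spry2, a Sprouty protein that restrains FGF receptor signalling to Ras, fell less. It had 66.3, 69.8 and 59.3 CPM in tissue, 43.6, 40.5 and 36.9 CPM at day 3, 37.0, 43.3 and 36.2 CPM at day 5, and 40.8, 40.2 and 29.8 CPM at day 7. The culture libraries again all lay below the tissue libraries. The log2 fold change was -0.68 ± 0.13 at day 3 (limma adjusted p = 0.000701), -0.73 ± 0.13 at day 5 (0.000346) and -0.81 ± 0.13 at day 7 (0.000142).

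Spry4, a Sprouty family member that inhibits receptor signalling upstream of Raf, changed in the opposite direction. It had 43.2, 52.0 and 47.0 CPM in tissue, 97.3, 91.6 and 85.4 CPM at day 3, 101.4, 112.3 and 116.2 CPM at day 5, and 89.0, 65.8 and 108.9 CPM at day 7. All culture libraries lay above all tissue libraries, with the widest spread at day 7. Of 5 myoid markers, 4 were also called higher at day 3 and 5 at days 5 and 7, and their part in the Spry4 values was not tested. The log2 fold change was 0.94 ± 0.15 at day 3 (limma adjusted p = 0.000131), 1.20 ± 0.15 at day 5 (1.40e-05) and 0.85 ± 0.15 at day 7 (0.000246). Across the 12 baseline libraries Spry4 ran opposite to Dusp5 (Pearson r = -0.91) and to Spry2 (-0.86), whereas Dusp5 and Spry2 ran together (0.92). These correlations describe libraries that fall into tissue and culture clusters, and they carry no test.

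**Figure D1:**
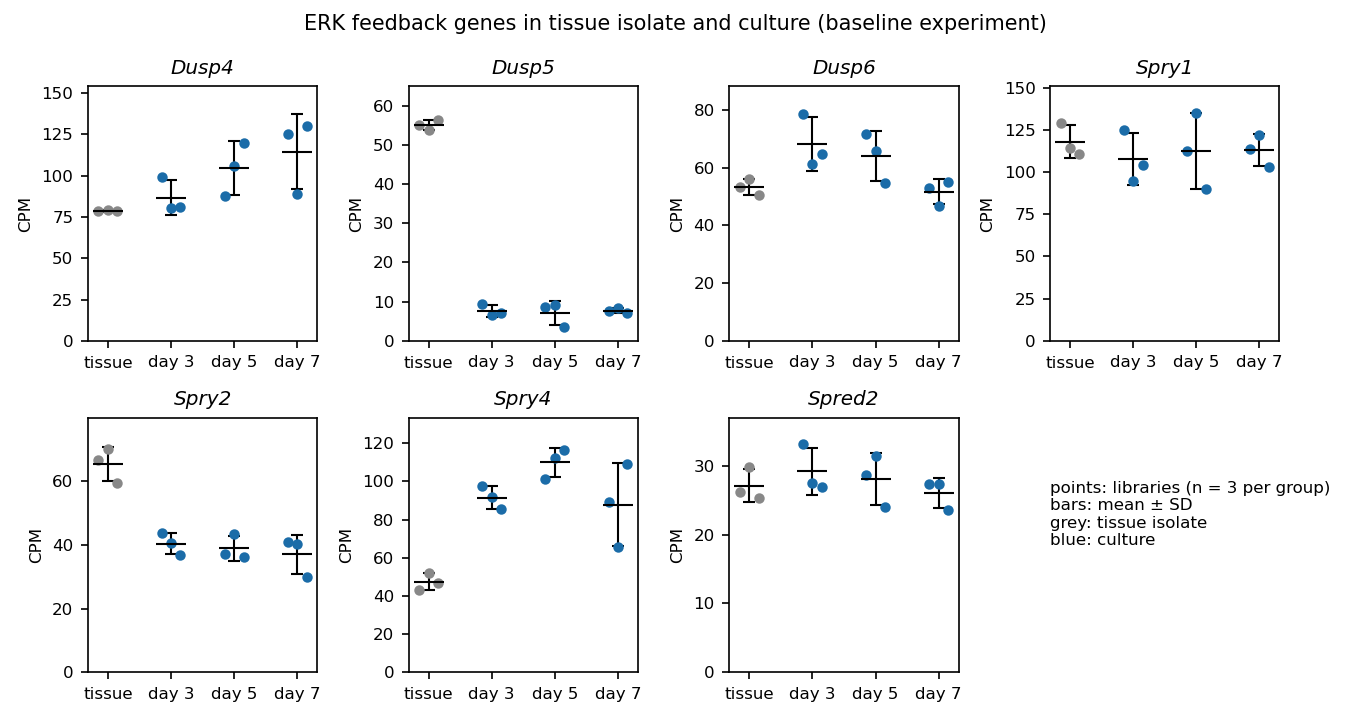
CPM of each member (vertical axis, from 0) in the tissue isolate and at days 3, 5 and 7 of culture. Points are the 3 libraries of a group and bars the mean ± SD. Dusp5 and Spry2 lie lower and Spry4 higher in every culture library than in every tissue library. The share of all genes that do so was not counted.

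Dusp4, a nuclear phosphatase for ERK and other MAP kinases, was higher at the later days. It had 78.3, 79.3 and 78.5 CPM in tissue, 98.9, 80.4 and 81.0 CPM at day 3, 87.7, 105.7 and 120.0 CPM at day 5, and 124.9, 88.6 and 130.1 CPM at day 7. The tissue libraries lay close to each other, while culture libraries were spread widely and lay above them at each day. The log2 fold change was 0.13 ± 0.15 at day 3 (limma adjusted p = 0.468), 0.39 ± 0.15 at day 5 (0.0354) and 0.52 ± 0.15 at day 7 (0.00878). The day 5 call was lost without day 5 replicate 2 (adjusted p = 0.0704), day 5 replicate 3 (0.122) or tissue replicate 1, 2 or 3 (0.0816, 0.0735 and 0.0808), and with no filter on low values (0.0517).

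Dusp6, a cytoplasmic phosphatase that is selective for ERK, was higher at day 3. It had 53.4, 55.9 and 50.6 CPM in tissue, 78.6, 61.2 and 64.7 CPM at day 3, 71.7, 65.7 and 54.6 CPM at day 5, and 53.1, 46.7 and 55.0 CPM at day 7. The day 3 libraries lay above those of tissue, and the day 5 and day 7 libraries overlapped them. The log2 fold change was 0.34 ± 0.12 at day 3 (limma adjusted p = 0.0309), 0.25 ± 0.12 at day 5 (0.0955) and -0.05 ± 0.12 at day 7 (0.755). The day 3 call was lost without day 3 replicate 1 (adjusted p = 0.155), tissue replicate 1 (0.073) or tissue replicate 3 (0.102), and under median-of-ratios scaling (0.0554). Without day 5 replicate 3, Dusp6 was called higher at day 5 (0.36, adjusted p = 0.0189).

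Spry1, which limits GDNF signalling through RET in the developing kidney of mice, ranged over 90.2 to 135.0 CPM in culture and 110.5 to 129.1 CPM in tissue. Spred2, a membrane-bound inhibitor of Ras-to-Raf signalling, ranged over 23.5 to 33.1 CPM in culture and 25.3 to 29.8 CPM in tissue. The fold changes of this pair lay between -0.13 ± 0.14 (Spry1, day 3) and 0.10 ± 0.13 (Spred2, day 3), and their groups overlapped at every day.

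**Figure D2:**
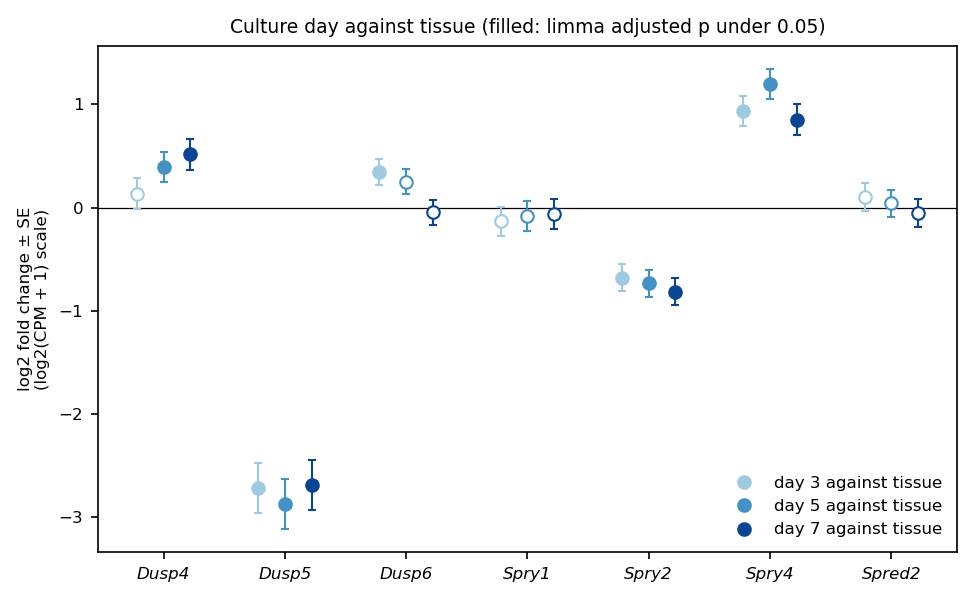
Log2 fold change ± SE (vertical axis, log2(CPM + 1) scale) of each member at days 3, 5 and 7 against tissue, from limma. Filled points have an adjusted p under 0.05; Dusp5 lies between -2.88 and -2.69 and Spry4 between 0.85 and 1.20.

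Between day 7 and day 3 of culture, limma called 0 of 7 members (2 at an unadjusted p under 0.05), with 3.79% of all genes called in either direction. The counts by edgeR and DESeq2 were also 0. Over all genes, edgeR called 223 higher and 240 lower of 13055, and DESeq2 called 411 and 391 of 13046. Shares of all genes at an unadjusted p were not computed, here or after LH and FSH. Dusp4 had a log2 fold change of 0.38 ± 0.15 (adjusted p = 0.221) and Dusp6 of -0.39 ± 0.12 (0.112), and all 3 Dusp6 libraries of day 7 lay below those of day 3. Without day 7 replicate 2, Dusp4 was called (0.56, limma adjusted p = 0.0412), where 155 of all 13020 genes were called higher and 303 lower.

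The remaining genes of the pathway were read at the same days. Most ERK target genes fell. At day 3, 13 of 16 tested were lower and 1 higher, with a median log2 fold change of -1.32 against 0.02 over all genes, of which 26.8% were lower. The 4 dissociation stress markers, of which Fos is on both lists, all fell too, with a median of -6.50, and their part in these values was not tested. At day 5 and at day 7 the counts were again 13 lower and 1 higher, with medians of -1.21 and -1.32. At day 3 Fosb had a mean of 3.42 CPM, against 1179 CPM in tissue (-8.07 ± 0.18, limma adjusted p = 6.28e-12). Egr1, an immediate early transcription factor, had 131.6 ± 29.1 CPM at day 3, against 2473 ± 81.1 CPM in tissue (-4.25 ± 0.24, 1.22e-08). Egr2 fell as well (-3.01 ± 0.17, 1.10e-08). Ccnd1, the cell cycle regulator cyclin D1, was the member of the list that rose (65.2 ± 5.39 CPM at day 3, against 20.4 ± 0.985 CPM in tissue).

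Among other phosphatases and feedback inhibitors there were changes in both directions. Of 14 tested, 7 were higher and 6 lower at day 3, 7 and 5 at day 5, and 7 and 6 at day 7, a larger share than the 29.1% higher and 26.8% lower among all genes at day 3; the difference was not tested. Errfi1, an inhibitor of the EGF receptor, had 32.1 ± 1.81 CPM at day 3, against 174.7 ± 8.84 CPM in tissue (-2.41 ± 0.12, limma adjusted p = 3.86e-09), and Dusp8, a phosphatase of stress kinases, had 20.9 ± 1.51 CPM, against 93.9 ± 10.4 CPM (-2.11 ± 0.12, 1.01e-08). Dusp14 (1.54 ± 0.21), Spred3 (1.28 ± 0.24), Dusp3 (1.15 ± 0.11) and Spry3 (1.07 ± 0.21) rose at day 3.

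Upstream lists are given by their counts, beside which 29.1% of all genes were called higher and 26.8% lower at day 3, and 28.5% higher and 31.4% lower at day 7. Among growth factor ligands, 9 of 13 tested were higher and 1 lower at day 3, 8 and 2 at day 5, and 10 and 2 at day 7. Fgf1 had 24.5 ± 1.03 CPM at day 3, against 1.70 ± 0.438 CPM in tissue (3.25 ± 0.18, limma adjusted p = 1.09e-08). Hgf (2.29 ± 0.20) and Kitlg (1.72 ± 0.13), the ligands of Met and Kit, also rose, while Pdgfa fell (-0.48 ± 0.15). Of 13 receptors, 8 were higher and 3 lower at day 3, 6 and 3 at day 5, and 5 and 3 at day 7. Fgfr2 rose (2.13 ± 0.19), and Fgfr3 (-2.41 ± 0.27) and Met (-1.81 ± 0.33) fell. In the Ras-Raf-MEK-ERK cascade, 9 of 21 were higher and 2 lower at day 3, 10 and 2 at day 5, and 10 and 4 at day 7. The Ras inactivator Rasa1 (1.12 ± 0.10) and the phosphatase Ptpn11 (1.06 ± 0.10) rose, and Hras (-0.42 ± 0.16) fell.

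**Figure D3:**
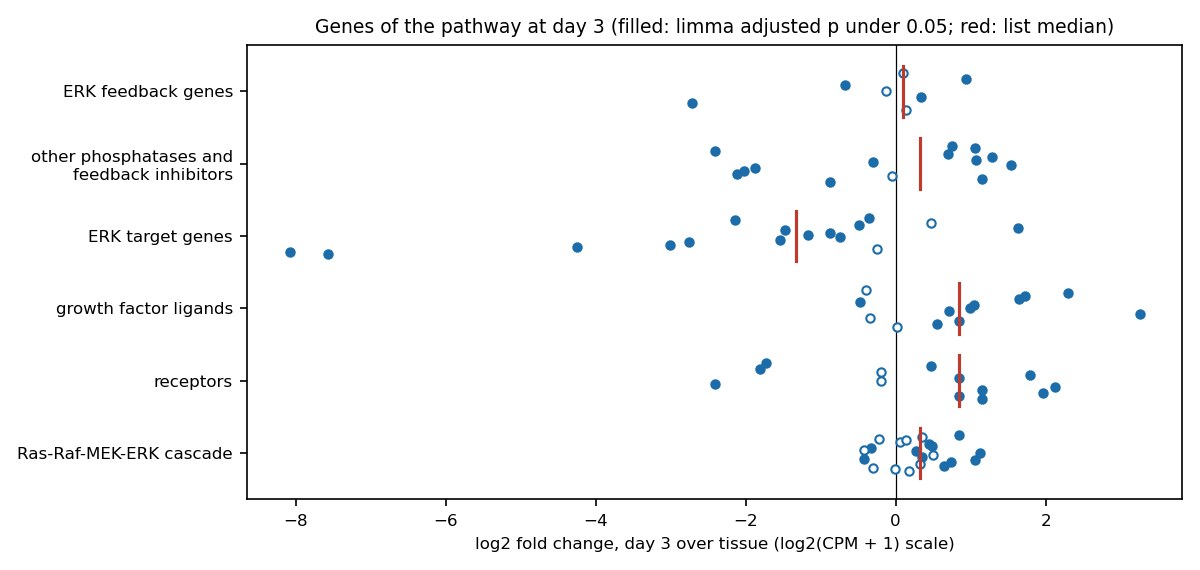
Log2 fold change at day 3 over tissue (horizontal axis, log2(CPM + 1) scale) of every tested gene of the feedback set and 5 pathway lists. Filled points have a limma adjusted p under 0.05 and red lines are medians; ERK target genes lie mostly to the left (median -1.32) and ligands and receptors mostly to the right (medians 0.84).

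After LH and FSH, no member was called by limma without a litter term. At 2 h against 0 h the count was 0 of 7 (1 at an unadjusted p under 0.05), and 0% of all 12450 genes were called. At 12 h it was 0 of 7 (1 unadjusted), with 0% of all genes. At 48 h it was 0 of 7 (2 unadjusted), with 0.394% of all genes. Between 12 h and 2 h it was 0 of 7 (2 unadjusted) and between 48 h and 12 h 0 of 7 (0 unadjusted), each with 0% of all genes. The counts by edgeR, edgeR with litter as a block and DESeq2 were 0 in each of these comparisons. Over all 12450 genes, edgeR without the block called 3 higher and 3 lower at 2 h, 0 and 0 at 12 h, and 32 and 6 at 48 h. Between 12 h and 2 h it called 8 and 3, and between 48 h and 12 h 0 and 0. The counts over all genes by edgeR with the block and by DESeq2 are given with the pathway lists below.

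Spry1 was the member with the most regular course. It had 158.0, 138.2 and 152.2 CPM at 0 h in litters 1, 2 and 3, 113.4, 92.0 and 133.0 CPM at 2 h, 114.4, 110.5 and 131.7 CPM at 12 h, and 116.3, 98.1 and 135.4 CPM at 48 h. Each litter was lower at every later time than at 0 h, and the groups did not overlap with 0 h. Among all genes tested, 448 of 12450 (3.60%) were lower than 0 h in every litter at all 3 times, and Spry1 was the 1 member among them. With litter as a block, limma called 1 of 7 members at 2 h, Spry1, at a log2 fold change of -0.42 ± 0.08 (adjusted p = 0.0445; 0.289 without the block), where 0.618% of all genes were called. The block also called 1 of 7 at 48 h, again Spry1 (-0.37 ± 0.08, adjusted p = 0.0270; 0.307 without the block), where 4.35% of all genes were called. At 12 h the value was -0.33 ± 0.08 (adjusted p = 0.542), with 0% of all genes called. The blocked counts were 0 of 7 at 12 h against 2 h (2.96% of all genes called) and 0 of 7 at 48 h against 12 h (0.715%). With edgeR and the block, the adjusted p of Spry1 was 0.0543 at 2 h and 0.0513 at 48 h. Leaving out litter 1, 2 or 3 from the blocked limma fit gave adjusted p-values of 0.208, 0.312 and 0.174 at 2 h, and of 0.198, 0.144 and 0.0312 at 48 h. At 2 h these fits called 0 of all genes, so no gene could keep a call in them. At 48 h they called 49 higher and 53 lower of 12266 genes without litter 1. They called 51 and 17 of 12315 without litter 2, and 115 and 78 of 12284 without litter 3. Leydig cell markers summed to 93.7 to 233.6 CPM at 2 h and 108.5 to 172.0 CPM at 48 h, against 59.0 to 95.3 CPM at 0 h. At 2 h the log2 fold change was 1.09 ± 0.35 for Star and 1.06 ± 0.74 for Cyp17a1. It was 0.37 ± 0.42 for Cyp11a1, 0.05 ± 0.73 for Lhcgr and 0.00 ± 0.28 for Hsd17b3. Of these 5 genes limma called 0. Myoid markers summed to 3455 to 4623 CPM at 2 h and 3660 to 4462 CPM at 48 h, against 3883 to 4370 CPM at 0 h. Macrophage markers summed to 6.72 to 38.6 CPM at 2 h and 10.9 to 111.7 CPM at 48 h, against 11.6 to 48.3 CPM at 0 h. At 12 h the sums were 61.4 to 134 CPM for Leydig, 4053 to 4131 CPM for myoid and 14.1 to 64.9 CPM for macrophage markers. These sums cannot tell the number of cells from the RNA per cell. The part of these cell types in the Spry1 values was not tested.

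Members whose libraries all lay below those of 0 h were Spry1 and Spred2 at 2 h, 2 of 7, where 7.91% of all genes did so. At 12 h it was Spry1, 1 of 7, against 6.28% of all genes. At 48 h they were Spry1 and Dusp6, 2 of 7, against 12.0% of all genes. Spred2 had 41.3, 45.9 and 44.3 CPM at 2 h in litters 1, 2 and 3, against 50.8, 60.5 and 47.7 CPM at 0 h (-0.26 ± 0.12, limma adjusted p = 0.470). Dusp6 had 27.6, 30.6 and 31.9 CPM at 48 h, against 38.3, 40.0 and 33.3 CPM at 0 h (-0.30 ± 0.10, limma adjusted p = 0.248). In a blocked limma fit without litter 3, both Dusp6 (-0.42, adjusted p = 0.0439) and Spry1 (-0.46, 0.0312) were called at 48 h. Of all 12284 genes in that fit, 115 were called higher and 78 lower.

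**Figure D4:**
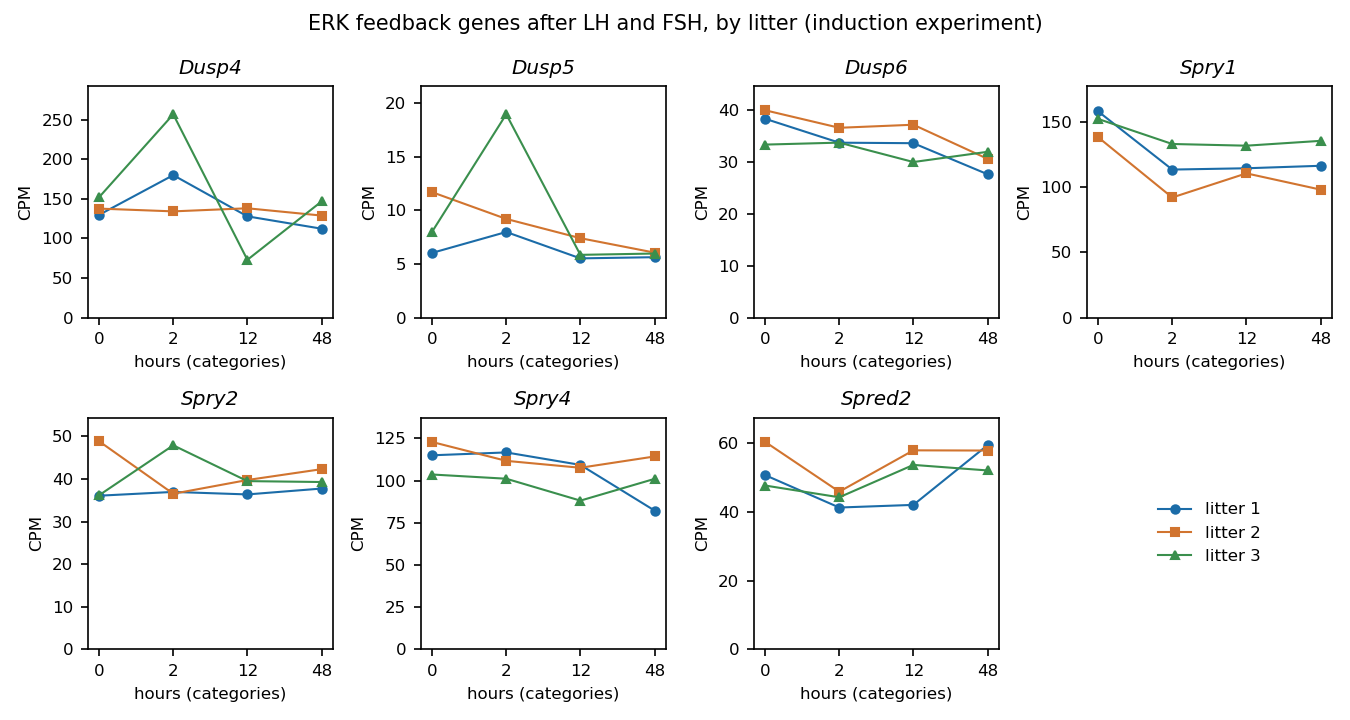
CPM of each member (vertical axis, from 0) at 0, 2, 12 and 48 h after LH and FSH (horizontal axis, evenly spaced categories), with 1 line per litter. Spry1 is below its 0 h level in all 3 litters at every later time, and Dusp4 and Dusp5 peak at 2 h in litter 3.

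Dusp4 and Dusp5 differed between litters at 2 h. Dusp4 had 129.9, 137.8 and 152.2 CPM at 0 h, 180.1, 134.3 and 257.0 CPM at 2 h, 128.0, 138.2 and 73.0 CPM at 12 h, and 112.4, 129.0 and 146.8 CPM at 48 h in litters 1, 2 and 3. Litter 3 held both the highest level, at 2 h, and the lowest, at 12 h. Its log2 fold change was 0.39 ± 0.25 at 2 h against 0 h (limma adjusted p = 0.640) and -0.75 ± 0.25 at 12 h against 2 h (0.233). At 2 h it was 0.15 without the 2 h library of litter 3 and 0.62 without that of litter 2. At 12 h against 2 h it was -0.51 without the 2 h library and -0.46 without the 12 h library of litter 3. Dusp5 had 6.04, 11.7 and 8.01 CPM at 0 h, 7.99, 9.21 and 19.0 CPM at 2 h, 5.52, 7.41 and 5.85 CPM at 12 h, and 5.64, 6.06 and 5.98 CPM at 48 h. Litters 1 and 3 were higher and litter 2 was lower at 2 h than at 0 h, and all 3 litters were lower at 12 h than at 2 h. The log2 fold change of Dusp5 was 0.40 ± 0.28 at 2 h against 0 h (limma adjusted p = 0.688) and -0.76 ± 0.28 at 12 h against 2 h (0.272). Without the 2 h library of litter 3 these values were 0.04 and -0.41. Leaving out the 0 h library of litter 1 gave 0.19 and that of litter 2 gave 0.62 at 2 h against 0 h, and leaving out the 2 h library of litter 1 gave 0.62.

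Spry2 and Spry4 were not called at any time. Spry2 ranged over 36.1 to 48.9 CPM across the 12 libraries, with log2 fold changes against 0 h of 0.01 ± 0.13 at 2 h, -0.05 ± 0.13 at 12 h and -0.01 ± 0.13 at 48 h. Spry4 ranged over 82.2 to 122.9 CPM and had -0.05 ± 0.12 at 2 h, -0.16 ± 0.12 at 12 h and -0.21 ± 0.12 at 48 h, lower than 0 h in 3 of 3 litters at 12 h (limma adjusted p = 0.993) and at 48 h (0.505). Counting all members, 2 of 7 were lower than 0 h in every litter at 2 h and 4 of 7 at 12 h. At 48 h the count was 5 of 7, and 0 members were higher in every litter at any of these times. The share of all genes at each time was not counted, so these counts are not read as a result about the members. The median log2 fold change of all genes was also below 0 at 2, 12 and 48 h (-0.02, -0.04 and -0.03). The 0 h libraries are shared by these comparisons.

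The genes whose profile over the 12 induction libraries was most like that of a member were found among 10429 genes with a mean of at least 5 CPM. Dusp5 was most like Fosb (Pearson r = 0.96, and 0.93 without the 2 libraries farthest from the median) and Egr3 (0.93 and 0.86), both immediate early genes. Fosb had 16.5, 21.3 and 110.9 CPM at 2 h in litters 1, 2 and 3, against 6.80, 18.2 and 10.1 CPM at 0 h, so that litter 3 was the highest at 2 h for Fosb as for Dusp5. Dusp4 was most like Plaur, the urokinase receptor (0.94 and 0.76), and Hivep1 (0.93 and 0.76). Fosb, Egr3 and Plaur are also on the list of ERK target genes. Spry1 was most like B3galnt1 (0.94 and 0.93), a glycosyltransferase. For the other members the leading genes were Tvp23a for Dusp6 (0.89), Synm for Spry2 (0.84), Stap2 for Spry4 (0.95) and Shprh for Spred2 (0.90). Libraries of a litter or time share their source, and the best of many genes is high by selection, so these values are descriptions. Among the members themselves, Dusp6 and Spry4 had r = 0.79 and Dusp4 and Dusp5 had r = 0.72.

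**Figure D5:**
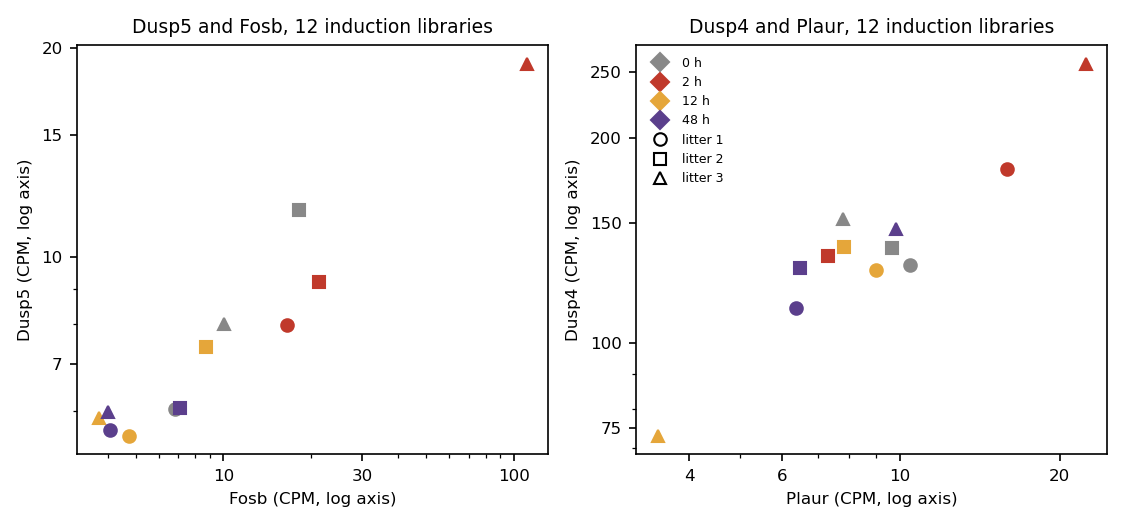
Levels in the 12 induction libraries (CPM, log axes) of Dusp5 against Fosb and of Dusp4 against Plaur. Colour gives the time and the marker shape the litter; the 2 h library of litter 3 is at the top right in both panels, with 110.9 CPM of Fosb and 19.0 CPM of Dusp5.

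The 5 pathway lists had 75 genes tested after LH and FSH, and limma called 0 of them in each comparison (13 at an unadjusted p under 0.05 at 2 h against 0 h, 5 at 12 h, 18 at 48 h, 23 at 12 h against 2 h and 6 at 48 h against 12 h). The share of all genes at an unadjusted p was not computed. The edgeR counts were 0 as well, and the DESeq2 counts were 2, 0, 4, 9 and 0. Over all genes tested, DESeq2 called 215 higher and 162 lower at 2 h (of 10519). It called 8 and 1 at 12 h, and 293 and 126 at 48 h (each of 12450). Between 12 h and 2 h it called 198 and 189 of 9553, and between 48 h and 12 h 63 and 22 of 12450. With litter as a block, limma called 1, 0, 6, 6 and 0, where 0.618, 0, 4.35, 2.96 and 0.715% of all genes were called. With the block, edgeR called 1, 0, 5, 2 and 0. Over all 12450 genes it called 48 higher and 39 lower at 2 h, 0 and 0 at 12 h, and 343 and 180 at 48 h. Between 12 h and 2 h it called 165 and 101, and between 48 h and 12 h 35 and 23. Rasa2, a Ras inactivator, was called higher at 2 h than at 0 h (0.56, blocked limma adjusted p = 0.0414), but not when litter 1, 2 or 3 was left out (0.188, 0.312 and 0.200). Those fits called 0 of all genes at 2 h against 0 h, so no gene could keep a call in them. At 48 h Egr1 (-0.52, 0.0138), Egr2, Etv4, Ret and Spred3 were called lower than at 0 h and Etv1 higher. Without litter 3 the calls of Egr1 (0.0204) and Egr2 (0.0348) held, without litter 2 that of Etv1 (0.0223) and without litter 1 that of Ret (0.0498). The other calls at 48 h were lost in these fits. At 12 h Fosb (-2.46, 0.0411), Fos, Egr1, Dusp8 and Rasa2 were called lower than at 2 h and Ksr1, a scaffold of the cascade, higher. None of these 6 calls held when litter 1, 2 or 3 was left out, with adjusted p of 0.155, 0.117 and 0.0768 for Fosb. For 12 h against 2 h these fits called 0 of all genes without litter 1 or litter 3. Without litter 2 they called 0 higher and 8 lower of 12315 genes. The lost calls are therefore not read as a result about these genes. By edgeR with the block, Dusp8 (adjusted p = 0.0440) and Ksr1 (0.0315) were called at 12 h against 2 h and Fosb was not (0.0504).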

How the data were processed

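Messenger RNA was sequenced from 24 libraries of 8 groups. Per the labels' protocols, RNA was selected with poly-T beads and made into non-directional libraries. The aligner was STAR and the build mRatBN7.2, per the submitters' processing notes. The STAR version and the counting tool are not given in the sources used here. The authors deposited CPM values. Dividing each value by that of 1 read gave a whole number for 100% of values (tolerance 0.01 read), which recovered the reads. Reads without a row made up 2.93 to 3.98% of a baseline library and 4.25 to 4.71% of an induction library.

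The 2 experiments were fitted apart from each other. Values were taken as log2(CPM + 1) into limma 3.58.1 (R 4.3.3), with a trend and group as the sole term. Genes needed 1 CPM in at least 3 libraries. Tests were two-sided, and Benjamini-Hochberg adjustment ran over all genes in each of 9 comparisons. The alternatives were pseudocounts of 0.1 and 5, no filter and a filter of 5 CPM, TMM and median-of-ratios scaling, fits of 2 groups only, each replicate left out, a replicate or litter block, and edgeR 4.0.16 and DESeq2 1.42.0 on the recovered reads. The limma fit without a block was tested on simulated data, for day 3 against tissue and 2 h against 0 h. Those data were drawn without a litter effect. The blocked fits and the other alternatives were not tested in this way. Motifs were searched in RefSeq promoter sequences of GRCr8, and no coordinates were moved between builds.

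The labels give the litter of each induction library. Deviations from the group means correlated across genes between libraries of 1 litter (18 pairs, median r = 0.482, range -0.0119 to 0.747, 16 above 0.1), so blocked values are given. In the baseline the 18 same-number pairs had a median of -0.000715 (5 above 0.1) and were not treated as pairs.

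All members are named whatever their values. From each list up to 4 called genes in the commoner direction and 2 in the other are named, by size of change and given 5 CPM or more on average in the higher group, and for each member the 2 most correlated genes; some of these are left out of the text. Calls of the blocked fit on list genes are named in addition, chosen after their values were seen. The members and lists were chosen with earlier results of these data known.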

Additional observations from a re-analysis of the deposited data

How the results depend on the processing

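With the replicate number or litter as a replicate block, the count of called members was 1 at 2 h against 0 h and 1 at 48 h against 0 h, where it was 0 without the block, and the block changed no other count of called members. Fits that left a litter out of every group under the block, and edgeR with the block, were added after seeing the data. Without litter 3 the blocked count at 48 h against 0 h was 2, where 115 of all 12284 genes were called higher and 78 lower. With single libraries left out, the count at day 7 against day 3 was 0 to 1. It was 1 without day 7 replicate 2, where 155 of all 13020 genes were called higher and 303 lower. Over all members, comparisons and alternatives, 1106 values kept their direction and side of the threshold, 10 lost a call, 6 gained one and 54 changed sign. None of the sign changes fell in a comparison in which that member was called. The causes were not tested. Log2 fold changes that changed sign with single libraries left out ranged as follows. At day 5 against tissue they ran from -0.04 to 0.15 for Spred2 and from -0.22 to 0.07 for Spry1. At day 7 against tissue they ran from -0.09 to 0.02 for Dusp6, from -0.10 to 0.02 for Spred2 and from -0.12 to 0.00 for Spry1. At day 7 against day 3 they ran from -0.07 to 0.16 for Dusp5, from -0.25 to 0.11 for Spry4, from -0.21 to 0.01 for Spry2 and from -0.02 to 0.18 for Spry1. At 2 h against 0 h they ran from -0.12 to 0.15 for Spry2 and from -0.12 to 0.01 for Spry4. At 12 h against 0 h they ran from -0.15 to 0.08 for Spred2 and from -0.12 to 0.09 for Spry2. At 48 h against 0 h they ran from -0.08 to 0.13 for Spry2. At 12 h against 2 h they ran from -0.12 to 0.03 for Dusp6, from -0.05 to 0.21 for Spry1 and from -0.13 to 0.07 for Spry2. At 48 h against 12 h they ran from -0.15 to 0.09 for Spry4, from -0.15 to 0.08 for Spry1, from -0.14 to 0.04 for Dusp5 and from -0.05 to 0.41 for Dusp4. Under the block, without litter 1 the values were -0.01 for Spry2 at 2 h against 0 h, 0.05 for Spred2 at 12 h against 0 h, 0.14 for Spry4 at 48 h against 12 h, -0.02 for Spred2 at 48 h against 12 h; without litter 2 the values were 0.07 for Spry2 at 12 h against 0 h, 0.09 for Spry2 at 48 h against 0 h, -0.00 for Spry1 at 12 h against 2 h, 0.02 for Dusp5 at 48 h against 12 h, 0.03 for Spry1 at 48 h against 12 h; without litter 3 the values were -0.19 for Spry2 at 2 h against 0 h, 0.01 for Dusp6 at 12 h against 2 h, 0.05 for Spry2 at 12 h against 2 h, -0.14 for Dusp4 at 48 h against 12 h. Spry4 at day 7 against day 3 was 0.01 by edgeR and by DESeq2. Spry2 at 48 h against 0 h was 0.02 under TMM scaling, median-of-ratios scaling, edgeR with and without the block, and DESeq2. Scaling moved the median of all genes by less than 0.1 on the log2 scale. With 3 libraries per group, and 1 litter at baseline, differences larger than the SEs given could go uncalled. Without the block, Spry1 at 2 h against 0 h (-0.42 ± 0.14, limma adjusted p = 0.289) and Dusp6 at 48 h against 0 h (-0.30 ± 0.10, 0.248) were such cases.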
